A study of Caenorhabditis elegans with 18 samples.

Results

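Larvae that had been fed for 12 h after hatching and then kept without food for 3 h (called FedStarved15 here) were compared with larvae fed for 12 h, the state before food was removed (Fed12). These are 2 of the 18 conditions of the series, and they were chosen by their labels alone. Larvae fed for the whole 15 h (Fed15), which started from the same 12 h state, were set beside them. All animals were Caenorhabditis elegans of the wild-type strain N2, kept at 20 °C in S-complete, a buffered liquid medium, with 10000 larvae in each 10 ml culture. Food, where present, was 25 mg/ml of E. coli HB101 bacteria. The sample titles place FedStarved15 and Fed12 in the first larval stage, L1, and Fed15 between L1 and L2. The comparison asks which events of late L1 go on when food is taken away and which do not.

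A larva grows within a collagen-rich cuticle that it replaces at each moult, and the genes for the new cuticle are switched on in waves that repeat once per stage. Growth between moults needs ribosome production, protein synthesis and cell division, which depend on nutrients through insulin-like and TOR signalling. A larva without food turns to stored fat and carbohydrate, and its FOXO transcription factor DAF-16 raises stress and metabolic genes.

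RNA from whole animals was measured on 3 Affymetrix arrays per condition. The deposited tables hold 1 mean intensity and 1 error per probe set and condition, and each ± on an intensity below is that error. Detection was called where the deposited detection p was under 1e-10, which held for 12018 of 22548 worm probe sets in FedStarved15, 11806 in Fed15 and 12332 in Fed12. Median intensities were 36.8, 37.1 and 39.3 in the same order, and the median log2 ratio of FedStarved15 to Fed12 over 17000 genes was 0. In whole-animal RNA, fewer cells of a type and less RNA per cell cannot be told apart. The FedStarved15 arrays were hybridized on 1 day, which they shared with larvae given food for 3 h after 12 h of starvation (StarvedFed15), and on 0 days shared with Fed12 or Fed15. Hybridization day and food removal therefore cannot be told apart in any comparison that uses FedStarved15. Both 15 h conditions were also set against the same Fed12 mean, so an error in Fed12 moves both ratios the same way. Like changes in both, as given below, are therefore not independent of each other.

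After Benjamini-Hochberg adjustment of the p-values in the authors' deposited table, 6 of 22548 probe sets (0.0266%) differed between FedStarved15 and Fed12 at the threshold of 0.05. The same rule called 2 (0.00887%) in Fed15 against Fed12 and 1 (0.00443%) in FedStarved15 against Fed15. Before adjustment, 3689 probe sets had a p under 0.05 in FedStarved15 against Fed12, 1781 with a higher and 1904 with a lower mean, and their adjusted p reached 0.306. Since adjustment left so few, genes in the lists below are counted as higher or lower where the authors' p for that pair was under 0.05 before adjustment. This rule was taken after the values had been seen, and nearly all genes counted by it do not pass adjustment. Over 17000 genes with 1 probe set each, it counts 8.22% as higher and 8.76% as lower in FedStarved15 against Fed12, 6.55% and 6.39% in Fed15 against Fed12, and 4.58% and 5.7% in FedStarved15 against Fed15. With an error pooled over the 18 conditions, 2171 probe sets passed an adjusted p of 0.05, and 5.48% of genes were then higher and 4.58% lower in FedStarved15 than in Fed12.

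The 6 probe sets that passed adjustment included genes at low to middling intensity. The gene F56D5.6 rose to 427 ± 24.7 in FedStarved15, against 182 ± 13.9 in Fed12, a log2 ratio of 1.23 ± 0.14 (adjusted p = 0.0376 from the authors' p-values). ZK792.7 rose to 188 ± 10.0 in FedStarved15, against 139 ± 8.36 in Fed12 (0.43 ± 0.12, adjusted p = 0.0342 from the authors' p-values). The gene tmed-1, of the p24 family of cargo adaptors between the endoplasmic reticulum and the Golgi, fell to 123 ± 9.69 in FedStarved15, against 223 ± 14.0 in Fed12 (-0.86 ± 0.15, adjusted p = 0.00787 from the authors' p-values). The others that fell were srfb-1 (-0.65 ± 0.18, adjusted p = 0.00661 from the authors' p-values), F58F9.3 (-1.25 ± 0.23, adjusted p = 0.0342 from the authors' p-values) and the C-type lectin gene clec-210 (adjusted p = 0.0376 from the authors' p-values). For clec-210 the signal was 26.1 ± 7.08 and not detected in FedStarved15, against 87.3 ± 12.9 in Fed12, at least 3.34-fold lower. Fed15 intensities of tmed-1 (191 ± 12.7), srfb-1 (91.8 ± 7.72) and F56D5.6 (315 ± 26.1) lay between the other 2 conditions.

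The genes with the largest differences between FedStarved15 and Fed12 were taken by size in each direction. By the rule of a p under 0.05 before adjustment, a difference of at least 2-fold and detection in the higher condition, the 12 leading genes that were higher were spig-15, cyp-37B1, nlp-25, col-39, dct-7, dct-5, col-159, adh-1, vap-2, col-161, col-80 and gpx-5. The 12 leading genes that were lower were numr-1, dbd-18, wrt-10, clec-180, cyp-13B1, lpr-5, dpy-7, acox-1.2, rips-1, cysl-2, osm-8 and lpr-3. None of the 24 passed adjustment (adjusted p between 0.139 and 0.294), and 18 of the 24 had a pooled-error adjusted p under 0.05.

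Several of the higher genes were as high, or nearly as high, in larvae that kept their food. The gene spig-15 had an intensity of 309 ± 31.3 in FedStarved15 and 225 ± 30.8 in Fed15, against 14.3 ± 6.21, not detected, in Fed12, at least 15.2-fold above Fed12 after food removal. The glutathione peroxidase gene gpx-5 had 822 ± 113 in FedStarved15 and 711 ± 60.1 in Fed15, against 110 ± 17.03 in Fed12. Both 15 h conditions stood far above 12 h for these genes. By contrast cyp-37B1, a cytochrome P450 gene, had 330 ± 57.1 in FedStarved15, against 20.5 ± 5.93 in Fed15 and 20.2 ± 5.89 in Fed12, and was detected only in FedStarved15 of these 3. It was at least 16.24-fold higher than in Fed12. The DAF-16-controlled gene dct-7 had 137 ± 35.02 in FedStarved15, against 7.10 ± 4.15 in Fed15 and 11.8 ± 4.90 in Fed12, again detected only in FedStarved15 of the 3.

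The lower genes split in the same way. The nuclear metal-responsive gene numr-1 had 29.99 ± 18.8, not detected, in FedStarved15, against 411 ± 84.9 in Fed15 and 479 ± 94.9 in Fed12, at least 15.97-fold below Fed12. A pair of genes linked to hydrogen sulfide and hypoxia responses were detected in both fed conditions and not in FedStarved15. The cysteine synthase-like gene cysl-2 had 34.2 ± 11.04, not detected, in FedStarved15, against 186 ± 27.6 in Fed15 and 344 ± 41.4 in Fed12. For rips-1 the values were 55.1 ± 16.6, not detected, in FedStarved15, against 222 ± 36.8 in Fed15 and 558 ± 116 in Fed12. The osmotic-response gene osm-8, a mucin-like gene, had instead 23.6 ± 10.6 in FedStarved15 and 5.59 ± 4.62 in Fed15, both not detected, against 230 ± 44.0 in Fed12.

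**Figure D1:**
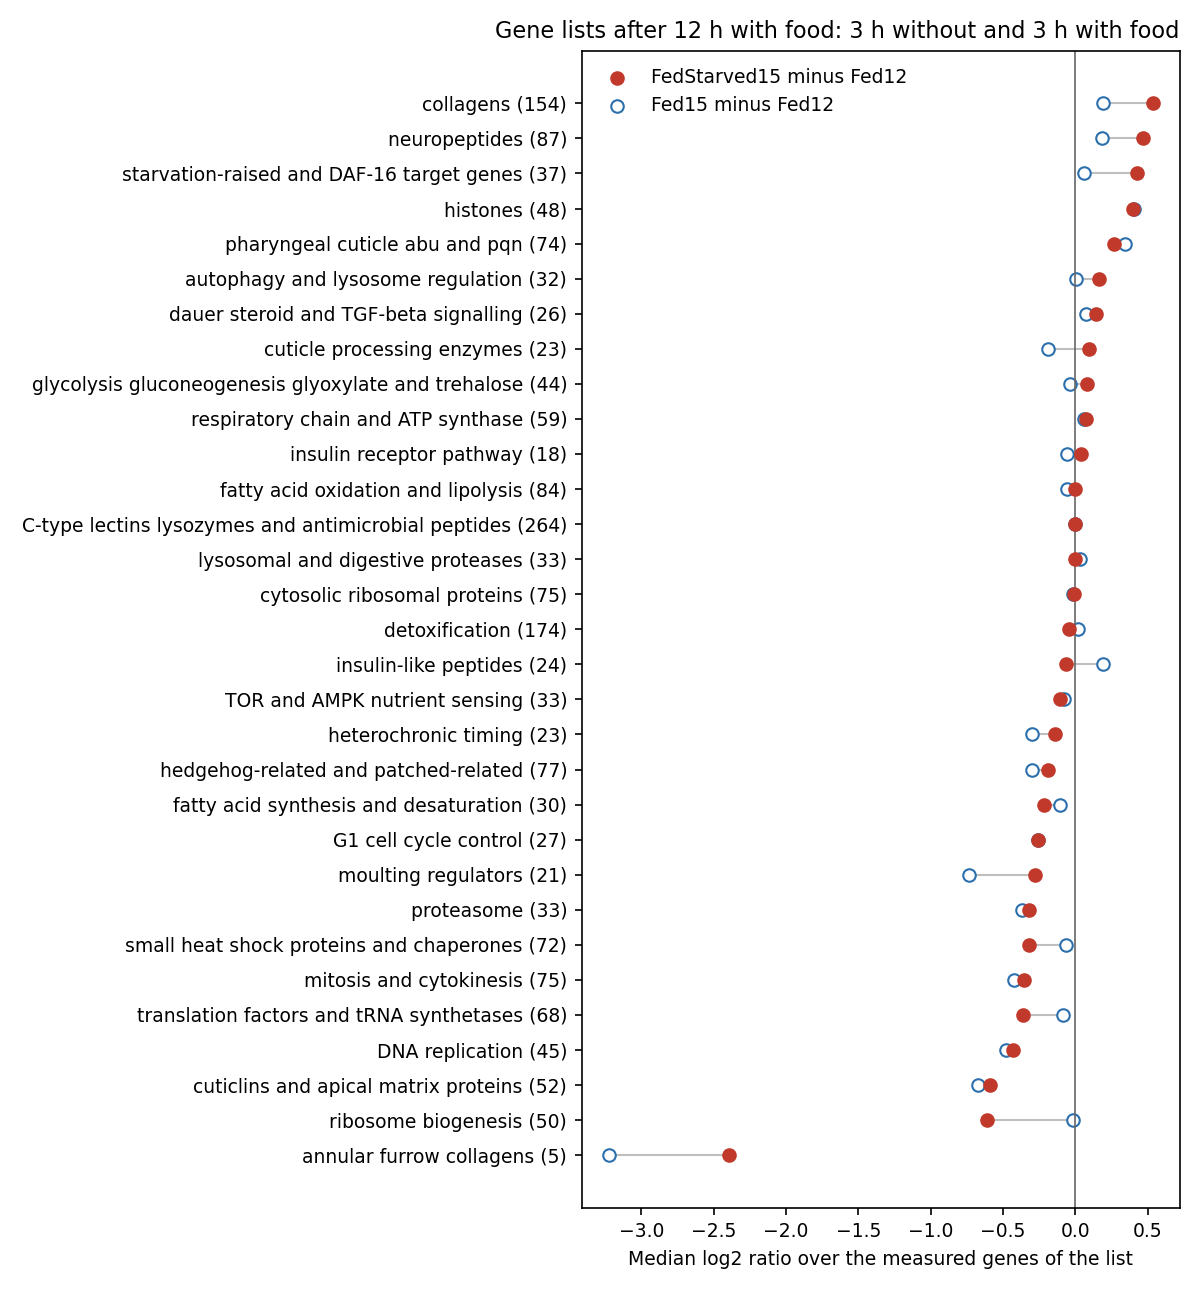
Median log2 ratio over the measured genes of each list (number of genes in parentheses), with FedStarved15 minus Fed12 as filled points and Fed15 minus Fed12 as open points. Ribosome biogenesis lies at -0.61 without food and -0.02 with food, while the annular furrow collagens lie at -2.39 and -3.22.

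Most genes that build ribosomes were counted as lower after food removal. Of 50 measured genes for ribosome biogenesis, 0 were higher and 34 were lower in FedStarved15 than in Fed12, and the median log2 ratio was -0.61. In Fed15 against Fed12, 1 was higher and 0 lower, with a median of -0.02. In FedStarved15 against Fed15, which tests whether the change without food differs from the change with food, 0 were higher and 30 lower (median -0.64). The pooled error called 33 of the 50 as lower in FedStarved15 than in Fed12.

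The nucleolar methyltransferase gene fib-1 (fibrillarin) had 1710 ± 122 in FedStarved15, against 3138 ± 153 in Fed15 and 3383 ± 164 in Fed12, 1.98-fold lower than in Fed12. For nol-58, a core protein of the small nucleolar ribonucleoprotein, the intensity was 403 ± 33.3 in FedStarved15, against 984 ± 89.3 in Fed15 and 897 ± 61.7 in Fed12. Thus FedStarved15 stood below both fed conditions by several errors, while the fed conditions lay within about 1 error of each other. The helicase gene ddx-10 had 48.9 ± 8.06 in FedStarved15, against 92.4 ± 11.3 in Fed15 and 107 ± 12.2 in Fed12. The nucleolar genes nol-6 (33.5 ± 6.80 in FedStarved15, against 83.7 ± 10.8 in Fed12) and nol-14 (16.21 ± 4.17 in FedStarved15, against 51.03 ± 6.98 in Fed12) were not detected in FedStarved15. They were at least 2.50-fold and 2.51-fold lower than in Fed12. Larvae starved from hatching had 1467 for fib-1 and 418 for nol-58 at 15 h.

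Genes for the machinery of translation were counted as lower in part. Of 68 translation factors and tRNA synthetases, 0 were higher and 37 lower in FedStarved15 than in Fed12 (median log2 ratio -0.37, with 0 higher and 28 lower by the pooled error). In Fed15 against Fed12, 3 were higher and 7 lower (median -0.09), and in FedStarved15 against Fed15, 0 were higher and 29 lower. The initiation factor gene inf-1, an eIF4A helicase, had 1143 ± 89.9 in FedStarved15, against 1984 ± 93.5 in Fed15 and 2384 ± 110 in Fed12. The lysyl-tRNA synthetase gene kars-1 had 461 ± 42.7 in FedStarved15, against 790 ± 64.7 in Fed15 and 811 ± 66.04 in Fed12. For eftu-2, related to elongation factor EF-2 and known as a splicing GTPase, the values were 453 ± 32.4, 643 ± 38.1 and 867 ± 48.3 in FedStarved15, Fed15 and Fed12. The eIF3 subunit gene eif-3.H was not detected in FedStarved15 (27.4 ± 4.99, against 68.4 ± 7.56 in Fed12, at least 2.50-fold lower).

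Genes for the ribosomal proteins themselves did not follow. Of 75 cytosolic ribosomal protein genes, 1 was higher and 0 lower in FedStarved15 than in Fed12, with a median log2 ratio of -0.01 and a range of -0.18 to 0.25. The gene counted, rpl-7A, differed by 0.04 ± 0.05.

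Protein-folding genes that were counted were nearly all lower. Of 72 heat shock and chaperone genes, 1 was higher and 21 lower in FedStarved15 than in Fed12 (median -0.32, with 1 higher and 18 lower by the pooled error), against 2 higher and 4 lower in Fed15 against Fed12 (median -0.07). Against Fed15, 3 were higher and 19 lower in FedStarved15. The small heat shock gene hsp-17 had 85.5 ± 12.33 in FedStarved15, against 241 ± 21.4 in Fed15 and 303 ± 30.5 in Fed12, 3.55-fold below Fed12. The stress-inducible small heat shock genes hsp-16.49 (95.7 ± 30.6 in FedStarved15, against 478 ± 86.03 in Fed12) and hsp-16.2 (10.8 ± 4.92 in FedStarved15, against 70.6 ± 11.3 in Fed12) were not detected in FedStarved15, at least 4.99-fold and 3.47-fold below Fed12. The single gene counted as higher, dnj-4, differed by 0.20 ± 0.24.

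**Figure D2:**
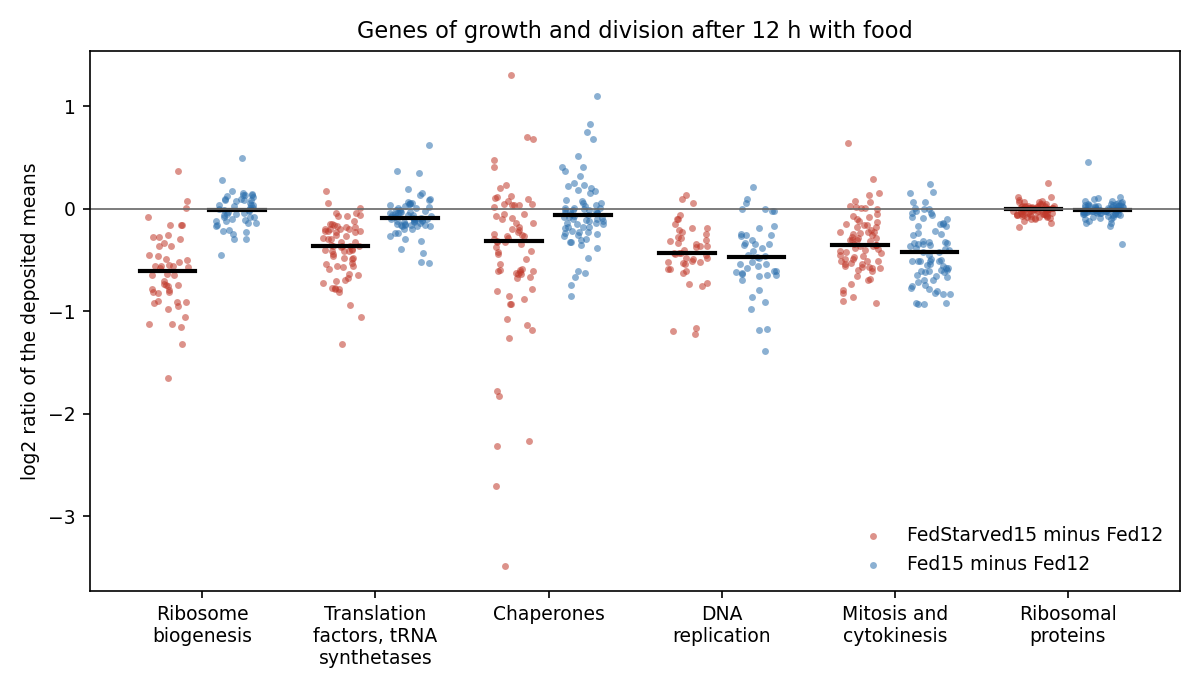
Log2 ratio of each measured gene in 6 lists, FedStarved15 minus Fed12 on the left and Fed15 minus Fed12 on the right of each pair, with the median as a black bar. The medians of ribosome biogenesis, translation and chaperone genes lie lower without food than with food, the medians of DNA replication and mitosis genes lie below 0 in both, and those of ribosomal protein genes lie close to 0 in both.

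Some genes of DNA replication and cell division were counted as lower in both 15 h conditions. Of 45 replication genes, 0 were higher and 18 lower in FedStarved15 than in Fed12 (median -0.43), and 0 were higher and 15 lower in Fed15 against Fed12 (median -0.48). The FedStarved15 larvae had 0 higher and 2 lower than Fed15, with a median of 0.04. The thymidylate synthase gene tyms-1 had 170 ± 17.5 in FedStarved15 and 165 ± 24.1 in Fed15, against 259 ± 22.9 in Fed12. The gene for the catalytic subunit of DNA polymerase alpha, pola-1, had 71.3 ± 9.90 in FedStarved15 and 72.9 ± 10.0 in Fed15, against 118 ± 13.1 in Fed12. The GINS subunit gene psf-1 was not detected in either 15 h condition and was at least 2.28-fold lower in FedStarved15 than in Fed12.

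Of 75 genes for mitosis and cytokinesis, 1 was higher and 23 lower in FedStarved15 than in Fed12 (median -0.35), beside 0 and 22 in Fed15 against Fed12 (median -0.42). The mitotic kinase gene cdk-1 had 212 ± 22.9 in FedStarved15 and 194 ± 21.6 in Fed15, against 367 ± 33.1 in Fed12. The Aurora kinase gene air-1 had 97.6 ± 14.4 in FedStarved15 and 95.3 ± 14.1 in Fed15, against 182 ± 20.6 in Fed12. Both 15 h conditions were alike within their errors for these kinases. The exception in the list was the formin gene cyk-1, at 126 ± 10.9 in FedStarved15, against 78.8 ± 8.36 in Fed15 and 81.2 ± 8.49 in Fed12. Pooling the error removed nearly all of these counts: it called 0 replication genes, and 1 mitosis gene as higher and 1 as lower, in FedStarved15 against Fed12.

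Among 27 genes of G1 control, 1 was higher and 6 lower in FedStarved15 than in Fed12 (median -0.26, with 1 higher and 0 lower by the pooled error). The cyclin-dependent kinase inhibitor gene cki-2 was counted as higher, at 151.2 ± 9.62 in FedStarved15, against 132 ± 8.86 in Fed15 and 112 ± 8.05 in Fed12. Its paralogue cki-1, which holds blast cells in arrest in unfed L1 larvae, had 528 ± 51.2 in FedStarved15, against 376 ± 20.0 in Fed15 and 393 ± 19.6 in Fed12, a log2 ratio of 0.43 ± 0.16 to Fed12 (adjusted p = 0.306 from the authors' p-values). Germ line markers, which could move with division genes, had a summed intensity of 1031 in FedStarved15, against 1108 in Fed15 and 1138 in Fed12, with 12 of 22 detected in FedStarved15 and in Fed12. Their part in these lists was not tested.

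Some histone genes were counted as higher in both 15 h conditions. Of 48 histone genes, 19 were higher and 1 lower in FedStarved15 than in Fed12 (median 0.40, with 10 higher and 2 lower by the pooled error), and 23 and 1 in Fed15 against Fed12 (median 0.41). The gene his-64 had 167 ± 14.0 in FedStarved15 and 166 ± 15.5 in Fed15, against 85.2 ± 9.48 in Fed12. The linker histone gene his-24 was lower, at 1144 ± 62.5 in FedStarved15 and 1171 ± 84.9 in Fed15, against 1659 ± 87.4 in Fed12. Core histone genes are near-identical copies, so values of single members are uncertain. Among 33 proteasome subunit genes, 0 were higher and 11 lower in FedStarved15 than in Fed12 (median -0.32, with 0 higher and 5 lower by the pooled error), and 0 and 18 in Fed15 against Fed12 (median -0.37). The regulatory particle gene rpn-1 had 607 ± 38.96 in FedStarved15 and 576 ± 37.2 in Fed15, against 875 ± 56.7 in Fed12.

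Several cuticle genes that stood high at 12 h were low 3 h later with and without food, both read against the same Fed12 mean. The annular furrow collagens shape the grooves of the cuticle and are made early in each cuticle wave. Of 5 measured, 4 were lower in FedStarved15 than in Fed12 (median -2.39, with 0 higher and 1 lower by the pooled error), and 4 in Fed15 against Fed12 (median -3.22). In FedStarved15 against Fed15, 0 of 5 were counted in either direction, although all 5 means were higher without food (median 0.66). The furrow collagen gene dpy-7 had 60.8 ± 22.6 in FedStarved15 and 47.1 ± 19.9 in Fed15, both not detected, against 627 ± 150.9 in Fed12, at least 10.3-fold above FedStarved15, with a pooled-error adjusted p of 0.37. The gene dpy-2 had 218 ± 33.1 in FedStarved15 and 184 ± 25.34 in Fed15, against 1018 ± 204 in Fed12. For dpy-8 the values were 184 ± 53.2 in FedStarved15 and 97.5 ± 23.4 in Fed15, against 965 ± 213 in Fed12, and dpy-9 was at least 5.91-fold lower in FedStarved15 than in Fed12. In fed larvae dpy-7 had 108 at 6 h, 627 at 12 h, 47.1 at 15 h and 657 at 24 h.

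The next list mixes cuticlins and cuticlin-like genes with moult-linked genes and proteins of the temporary matrix that covers the epidermis between cuticles. Of 52 cuticlins and apical matrix genes, 4 were higher and 14 lower in FedStarved15 than in Fed12 (median -0.59, with 3 higher and 9 lower by the pooled error), beside 4 and 19 in Fed15 against Fed12 (median -0.67). The lipocalin gene lpr-3 had 146 ± 46.7, not detected, in FedStarved15 and 147 ± 35.5 in Fed15, against 1305 ± 289 in Fed12. The zona pellucida-domain gene noah-1 had 215 ± 46.1 in FedStarved15 and 183 ± 36.8 in Fed15, against 1645 ± 251 in Fed12, 7.66-fold lower without food than at 12 h. The leucine-rich repeat gene sym-1 was at least 7.98-fold lower in FedStarved15 than in Fed12. The moult-linked gene mlt-10 had 92.1 ± 26.8 in FedStarved15 and 44.5 ± 14.0 in Fed15, both not detected, against 409 ± 38.3 in Fed12. The cuticlin-like gene cutl-24 had 135 ± 12.8 in FedStarved15 and 153 ± 10.5 in Fed15, against 45.8 ± 5.98 in Fed12.

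Among regulators of moulting fewer were counted as lower without food than with food. Of 21, 0 were higher and 5 lower in FedStarved15 than in Fed12 (median -0.28, with 0 higher and 4 lower by the pooled error), beside 1 and 10 in Fed15 against Fed12 (median -0.73). Against Fed15, 5 were higher and 0 lower in FedStarved15. The zinc finger gene bed-3, which is needed for moulting, had 159 ± 22.3 in FedStarved15, against 62.7 ± 12.1 in Fed15 and 390 ± 30.6 in Fed12. FedStarved15 therefore stood between the fed times, and the log2 difference to Fed15 was 1.34 ± 0.34 (p = 0.015 before adjustment in the authors' deposited table). The period homologue lin-42, whose transcript cycles with the moults, had 110 ± 17.6 in FedStarved15, against 71.9 ± 16.6 in Fed15 and 245 ± 19.8 in Fed12. The nuclear receptor gene nhr-23 was near its detection limit, at 22.4 ± 4.35, not detected, in FedStarved15, against 26.8 ± 4.70 in Fed12. The repressor gene blmp-1 was detected only at 12 h of these 3, and mlt-4 likewise.

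Hedgehog-related genes encode secreted proteins of the epidermis that follow the moulting cycle. They were counted as lower more often than as higher, beside shares of 8.22% higher and 8.76% lower over all genes. Of 77 with their patched-related partners, 5 were higher and 18 lower in FedStarved15 than in Fed12 (median -0.19, with 8 higher and 10 lower by the pooled error), beside 5 and 23 in Fed15 against Fed12 (median -0.30). The warthog gene wrt-10 had 39.6 ± 18.1 in FedStarved15 and 57.1 ± 19.5 in Fed15, both not detected, against 471 ± 94.5 in Fed12, at least 11.9-fold above FedStarved15. The genes wrt-2 and wrt-1 were at least 8.90-fold and 8.78-fold lower in FedStarved15 than in Fed12. The ground-like gene grl-21 had 2851 ± 614 in FedStarved15 and 3497 ± 554 in Fed15, against 385 ± 86.8 in Fed12, 7.40-fold higher after food removal. Of hypodermis and seam markers, 12 were measured and the summed intensity was 3560 in FedStarved15, against 2768 in Fed15 and 3462 in Fed12; wrt-2 and grd-10, which are among them, are genes of this list. The other markers' part in these lists was not tested.

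**Figure D3:**
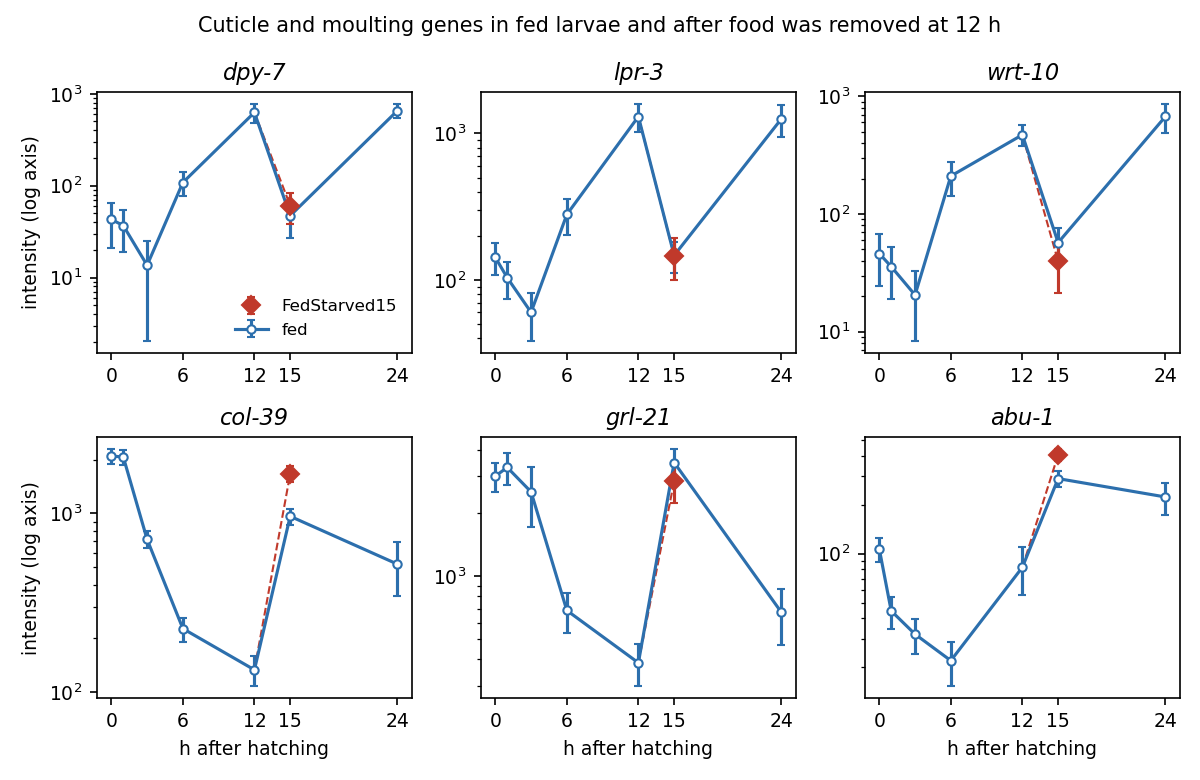
Intensity (log axis) of 6 cuticle and moulting genes in FedStarved15 (filled diamond) and in fed larvae from 0 to 24 h (open circles), with the deposited error as bars, shortened downward where the error came close to the mean. The dashed line joins Fed12 to FedStarved15, which lies beside the fed 15 h point for dpy-7, lpr-3, wrt-10 and grl-21 and above it for col-39 and abu-1.

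More collagen genes were counted as higher than as lower without food, and about as many in each direction with food. Of 154 collagen genes, 30 were higher and 8 lower in FedStarved15 than in Fed12 (median 0.53), beside 16 and 18 in Fed15 against Fed12 (median 0.19). In FedStarved15 against Fed15, 21 were higher and 0 lower, with a median of 0.42. By the pooled error, 43 were higher and 3 lower in FedStarved15 than in Fed12. The gene col-161 had 3274 ± 292 in FedStarved15, against 1159 ± 158 in Fed15 and 415 ± 92.3 in Fed12, 7.90-fold above Fed12. The gene col-39 had 1663 ± 173 in FedStarved15, against 964 ± 101 in Fed15 and 134 ± 25.07 in Fed12, and col-159 had 4847 ± 486, 3269 ± 335 and 541 ± 102 in the same conditions. In all 3 of these genes the FedStarved15 mean was the highest of the conditions compared. The collagen gene col-80 was detected only in FedStarved15 of the 3 (194 ± 37.9, against 25.17 ± 12.8 in Fed12).

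Collagen-modifying enzymes did not share a direction. Of 23 cuticle processing genes, 1 was higher and 5 lower in FedStarved15 than in Fed12 (median 0.09, with 3 higher and 4 lower by the pooled error), beside 2 and 5 in Fed15 against Fed12 (median -0.19). The peptidyl-prolyl isomerase gene fkb-5 had 245 ± 33.3 in FedStarved15 and 270 ± 35.4 in Fed15, against 1794 ± 282 in Fed12. The peroxidase gene mlt-7, which crosslinks the cuticle, had 590 ± 40.7 in FedStarved15 and 521 ± 36.98 in Fed15, against 174 ± 24.0 in Fed12. The astacin protease gene nas-37, needed to shed the old cuticle, had 40.5 ± 6.36 in FedStarved15, against 14.9 ± 5.02, not detected, in Fed15 and 89.2 ± 14.2 in Fed12.

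Some genes for the lining of the pharynx were counted as higher at 15 h in both conditions. The list read here was drawn from abu, pqn and phat genes and mtch-1. Its abu and pqn genes encode glutamine- and asparagine-rich or cysteine-rich proteins, some of them in the pharyngeal cuticle. Of 74 genes measured, 18 were higher and 1 lower in FedStarved15 than in Fed12 (median 0.27, with 10 higher and 0 lower by the pooled error). In Fed15 against Fed12, 19 were higher and 3 lower (median 0.35). The gene abu-1 had 405 ± 33.98 in FedStarved15 and 289 ± 32.3 in Fed15, against 82.4 ± 26.8, not detected, in Fed12. For pqn-94 the order of the 15 h conditions was turned, with 641 ± 128 in FedStarved15 and 1376 ± 156 in Fed15, against 178 ± 33.1 in Fed12. Members of the abu family are alike in sequence and may share signal. The 15 pharynx markers had a median of 0.01 in FedStarved15 against Fed12 and 0.48 in Fed15 against Fed12, with summed intensities of 3893 in FedStarved15, 5243 in Fed15 and 3556 in Fed12. The phat genes among these markers are in both lists, and the markers' part in the values above was not tested.

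Some genes known to be high in unfed larvae were higher after 3 h without food. Of 37 starvation-raised and DAF-16 target genes, 10 were higher and 2 lower in FedStarved15 than in Fed12 (median 0.43, with 8 higher and 3 lower by the pooled error), beside 3 and 2 in Fed15 against Fed12 (median 0.06). Against Fed15, 9 were higher and 0 lower in FedStarved15 (median 0.29). Some members of this list were named with earlier results of these arrays known, so its direction is not independent evidence.

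The alcohol dehydrogenase gene adh-1 had 1651 ± 220 in FedStarved15, against 561 ± 120 in Fed15 and 185 ± 46.1 in Fed12, 8.91-fold above Fed12. The nicotinamide nucleotide transhydrogenase gene nnt-1 had 349 ± 28.2 in FedStarved15, against 62.05 ± 9.43 in Fed15 and 69.5 ± 10.0 in Fed12. The DAF-16-regulated gene dod-3 had 1197 ± 175 in FedStarved15, against 281 ± 53.0 in Fed15 and 204 ± 33.6 in Fed12. In each of these genes the FedStarved15 mean lay below that of larvae that had never been fed, which at 15 h was 5762 for adh-1, 594 for nnt-1 and 1724 for dod-3. The metallothionein gene mtl-1 had 504 ± 47.7 in FedStarved15, against 128 ± 19.2 in Fed15 and 102 ± 20.5 in Fed12.

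Other genes of the list lay at lower intensities or were not measurable. The fatty acid and retinol binding gene far-7 had 178 ± 15.6 in FedStarved15, against 117 ± 12.2 in Fed15 and 51.6 ± 7.84 in Fed12, while larvae starved from hatching had 2240 at 15 h. The linker histone-like gene hil-1 had 74.4 ± 11.6 in FedStarved15, against 35.4 ± 6.85 in Fed15 and 23.9 ± 5.74, not detected, in Fed12. It was not counted as higher (adjusted p = 0.436 to Fed12 from the authors' p-values). For the flavin monooxygenase gene fmo-2 the values were 178 ± 35.6 in FedStarved15, against 48.4 ± 16.6 in Fed15 and 49.4 ± 17.8 in Fed12, both not detected, and its adjusted p to Fed12 was 0.366. The superoxide dismutase gene sod-3 and the small heat shock gene hsp-12.6 were not detected in any of the 3 conditions. The glutathione S-transferase gene gst-10 was lower, at 365 ± 30.4 in FedStarved15, against 471 ± 41.2 in Fed15 and 680 ± 48.3 in Fed12.

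Genes for fatty acid oxidation and lipolysis were counted as lower more often than as higher, beside shares of 8.22% higher and 8.76% lower over all genes. Of 84 genes for fatty acid oxidation and lipolysis, 10 were higher and 22 lower in FedStarved15 than in Fed12 (median 0.00, with 5 higher and 18 lower by the pooled error), beside 3 and 17 in Fed15 against Fed12 (median -0.06). The lysosomal lipase gene lipl-2 had 296 ± 26.2 in FedStarved15, against 60.6 ± 10.3 in Fed15 and 51.1 ± 9.41 in Fed12, 5.80-fold above Fed12. Its relative lipl-3, known to be induced by fasting in older worms, was not detected in any of the 3. The acyl-CoA oxidase gene acox-1.2, of a peroxisomal family that shortens ascaroside side chains, had 52.6 ± 10.1 in FedStarved15, against 309 ± 49.5 in Fed15 and 538 ± 42.7 in Fed12. The carnitine palmitoyltransferase gene cpt-4 had 82.8 ± 12.28 in FedStarved15, against 258 ± 62.9 in Fed15 and 607 ± 44.7 in Fed12. The acyl-CoA synthetase gene acs-1 had 81.0 ± 10.1 in FedStarved15, against 142 ± 18.04 in Fed15 and 325 ± 23.6 in Fed12. The fasting-responsive synthetase gene acs-2, by contrast, had 91.9 ± 15.8 in FedStarved15 and 112 ± 23.6 in Fed15, against 53.4 ± 13.3, not detected, in Fed12 (adjusted p = 0.431 from the authors' p-values).

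Fat synthesis had 5 of 30 genes higher and 6 lower in FedStarved15 than in Fed12 (median -0.22, with 1 higher and 5 lower by the pooled error), beside 3 and 6 in Fed15 against Fed12 (median -0.11). The ATP citrate lyase gene acly-1, which makes acetyl-CoA for lipid synthesis, had 157 ± 12.2 in FedStarved15, against 218 ± 15.0 in Fed15 and 362 ± 21.04 in Fed12 (adjusted p = 0.0922 from the authors' p-values). The delta-9 desaturase gene fat-7 had 230 ± 28.5 in FedStarved15, against 482 ± 74.4 in Fed15 and 524 ± 50.6 in Fed12. The elongase gene elo-4 was instead low in both 15 h conditions, and at least 5.45-fold lower in FedStarved15 than in Fed12. The glycerol-3-phosphate dehydrogenase gene gpdh-1, which serves glycerol production, had 29.1 ± 7.09, not detected, in FedStarved15, against 109 ± 17.1 in Fed15 and 73.7 ± 11.2 in Fed12.

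In central carbon metabolism, 11 of 44 genes were higher and 5 lower in FedStarved15 than in Fed12 (median 0.08, with 8 higher and 3 lower by the pooled error), beside 3 and 4 in Fed15 against Fed12 (median -0.03). The glyoxylate cycle gene icl-1, which lets worms make sugar from fat, had 4910 ± 508 in FedStarved15, against 2777 ± 297 in Fed15 and 2512 ± 271 in Fed12. The trehalose synthase gene tps-1 was alike within error with and without food, at 335 ± 35.6 in FedStarved15 and 342 ± 38.3 in Fed15, against 159 ± 20.2 in Fed12. The lactate dehydrogenase gene ldh-1 had 306 ± 26.7 in FedStarved15, against 407 ± 32.6 in Fed15 and 578 ± 42.2 in Fed12. Respiratory chain genes stayed near their 12 h level: of 59, 2 were higher and 2 lower in FedStarved15 than in Fed12, with a median of 0.08. Of 16 intestinal markers, 2 were higher and 2 lower (median 0.04), and their summed intensity was 15147 in FedStarved15, against 14196 in Fed15 and 14966 in Fed12.

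An intestinal marker gave the single call between the 15 h conditions. The P-glycoprotein gene pgp-1 fell to 13.9 ± 5.55, not detected, in FedStarved15, against 78.1 ± 12.32 in Fed15 (log2 -2.49 ± 0.62, and p = 2.12e-06 in the authors' deposited table before adjustment). Its Fed12 intensity was 100 ± 14.1. The other 15 intestinal markers included the esterase gene ges-1, at 238 ± 19.6 in FedStarved15, against 160 ± 15.3 in Fed15 and 140 ± 14.1 in Fed12.

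**Figure D4:**
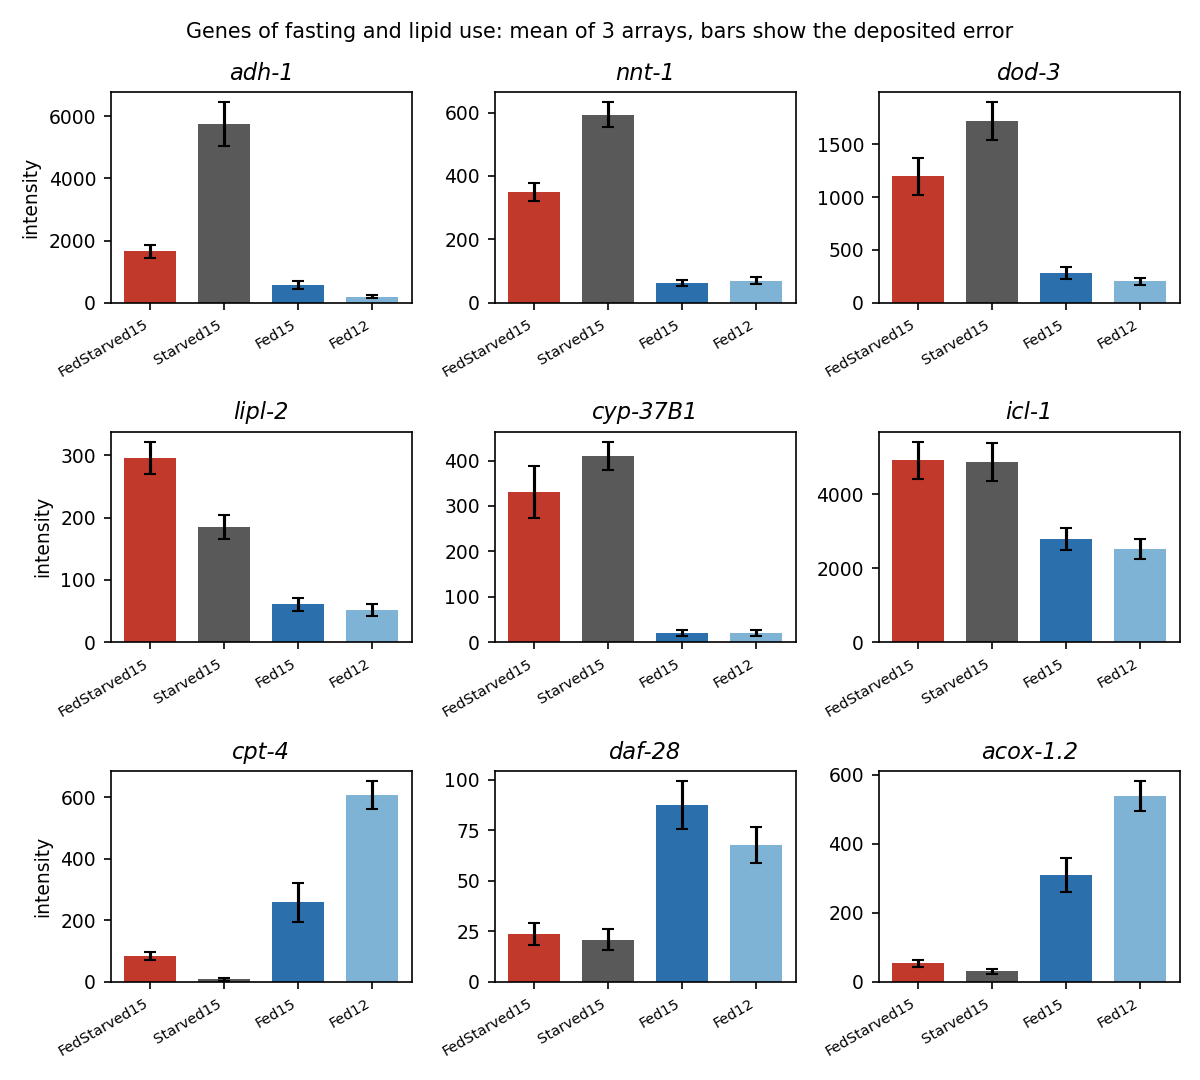
Intensity of 9 genes of fasting and lipid use in FedStarved15, in larvae starved for 15 h from hatching (Starved15), in Fed15 and in Fed12, as means of 3 arrays with the deposited error. FedStarved15 stands apart from both fed conditions for nnt-1, dod-3, lipl-2, cyp-37B1 and acox-1.2, and lies below Starved15 for adh-1.

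Among signals that report food, the insulin-like gene daf-28, an agonist made in sensory neurons, was lower after food removal. It had 23.5 ± 5.51, not detected, in FedStarved15, against 87.6 ± 11.8 in Fed15 and 67.7 ± 9.15 in Fed12, at least 2.89-fold below Fed12. Of 24 insulin-like genes, 10 were detected in FedStarved15 or Fed12, 2 were higher and 1 was lower. These counts do not stand above the shares over all genes, 8.22% higher and 8.76% lower. The higher ones were ins-18 (336 ± 22.7 in FedStarved15, against 224 ± 24.5 in Fed15 and 194 ± 15.8 in Fed12) and ins-17 (266 ± 24.1 in FedStarved15, against 181 ± 18.98 in Fed15 and 157 ± 15.7 in Fed12). The agonist gene ins-7 was not detected in any of the 3 conditions.

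Of 18 genes for the insulin receptor, its pathway and related signalling, 2 were higher and 3 lower in FedStarved15 than in Fed12 (median 0.04, with 2 higher and 0 lower by the pooled error). The kinase gene pdk-1 had 191 ± 11.6 in FedStarved15, against 124 ± 8.47 in Fed15 and 127 ± 8.35 in Fed12. The transcript of daf-16 itself differed by 0.32 ± 0.25 (adjusted p = 0.664 from the authors' p-values). Among 33 genes of TOR and AMP-activated kinase signalling, 2 were higher and 2 lower (median -0.11, with 2 higher and 0 lower by the pooled error). The counts before adjustment do not stand above the shares over all genes, 8.22% higher and 8.76% lower. The AMP-activated kinase catalytic gene aak-2 had 277 ± 18.6 in FedStarved15, against 208 ± 16.4 in Fed15 and 183 ± 14.2 in Fed12. The translation control gene gcn-1 had 120 ± 16.3 in FedStarved15, against 211 ± 22.9 in Fed15 and 228 ± 24.1 in Fed12.

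Autophagy and its lysosomal regulators had 7 of 32 genes higher and 5 lower in FedStarved15 than in Fed12 (median 0.16, with 4 higher and 3 lower by the pooled error), beside 1 and 1 in Fed15 against Fed12 (median 0.01). The repressor gene mxl-3, which holds down lysosomal lipase genes in fed worms, had 90.9 ± 16.7 in FedStarved15, against 349 ± 30.7 in Fed15 and 488 ± 38.9 in Fed12, 5.37-fold below Fed12. The lipid transfer gene atg-2, which helps to build the autophagosome, had 284 ± 15.8 in FedStarved15, against 182 ± 11.8 in Fed15 and 161 ± 10.97 in Fed12. Lysosomal and digestive proteases showed 3 of 33 higher and 1 lower (median 0.00, with 0 higher and 1 lower by the pooled error). The shares over all genes were 8.22% higher and 8.76% lower.

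Developmental timing genes gave small counts, beside shares of 8.22% higher and 8.76% lower over all genes. Of 23 heterochronic genes, 0 were higher and 2 lower in FedStarved15 than in Fed12 (median -0.14, with 0 higher and 0 lower by the pooled error), beside 1 and 4 in Fed15 against Fed12 (median -0.30). The RNA-binding gene lin-28 had 24.6 ± 4.87 in FedStarved15 and 26.2 ± 5.49 in Fed15, both not detected, against 40.2 ± 8.20 in Fed12. The zinc finger gene hbl-1 differed by 0.21 ± 0.24 between FedStarved15 and Fed12, and lin-14 was listed at the floor of 5 in all 3 conditions. Of 26 dauer, steroid and TGF-beta genes, 4 were higher and 2 lower (median 0.14, with 4 higher and 2 lower by the pooled error). The dafachronic acid pathway gene dhs-16 was at least 3.56-fold lower in FedStarved15 than in Fed12 and was not detected in Fed15 either. The TGF-beta pathway gene sma-10 had 124 ± 11.2 in FedStarved15 and 88.6 ± 9.30 in Fed15, against 48.98 ± 8.37 in Fed12.

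Neuropeptide genes were counted as higher in FedStarved15 far more often than as lower. Of 87, 35 were higher and 0 lower than in Fed12 (median 0.47), beside 21 and 1 in Fed15 against Fed12 (median 0.18), and 18 and 1 in FedStarved15 against Fed15. The pooled error called 33 as higher. The 3 leading members, nlp-25, nlp-26 and nlp-29, are known from the epidermis, where peptides of this group act against fungi. The gene nlp-25 had 283 ± 47.5 in FedStarved15 and 91.7 ± 14.4 in Fed15, against 19.8 ± 6.79, not detected, in Fed12. The gene nlp-29 had 1325 ± 264 in FedStarved15 and 1710 ± 191 in Fed15, against 396 ± 58.6 in Fed12. Of the 21 neuron markers 4 were higher and 0 lower, with a median of 0.11 and a summed intensity of 7795 in FedStarved15, against 6968 in Fed15 and 6894 in Fed12. Their part in the neuropeptide values was not tested.

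Defence and detoxification families held members at both extremes and medians near 0, with many members not detected. Of 264 C-type lectin, lysozyme and antimicrobial peptide genes, 88 were detected in FedStarved15 or Fed12. In FedStarved15 against Fed12, 21 were higher and 19 lower (median 0.00, with 18 higher and 8 lower by the pooled error). These counts lie near the shares over all genes, 8.22% higher and 8.76% lower. The highest log2 ratio was that of nlp-25, which is also in the neuropeptide list, and clec-180 was at least 11.5-fold lower. The caenacin gene cnc-8 had 819 ± 159 in FedStarved15 and 826 ± 76.2 in Fed15, against 174 ± 25.15 in Fed12. Of 174 cytochrome P450, glucuronosyltransferase and glutathione transferase genes, 94 were detected in FedStarved15 or Fed12. In FedStarved15 against Fed12, 22 were higher and 21 lower (median -0.05, with 16 higher and 17 lower by the pooled error). The gene cyp-13B1, one of a family of similar P450 genes, had 48.3 ± 12.8, not detected, in FedStarved15, against 182 ± 26.7 in Fed15 and 549 ± 57.2 in Fed12, and ugt-8 was at least 3.93-fold below Fed12. Of 6 vitellogenin genes, 1 was detected and 0 were counted in either direction.

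The comparison was also read over genes chosen by other conditions, none of which is FedStarved15 or Fed12. Each choice took an adjusted p under 0.05 between those conditions, at least a 4-fold difference and detection in the higher condition. The 282 genes at least 4-fold higher in fed larvae at 15 h than at 6 h had a median log2 ratio of 0.88 in FedStarved15 against Fed12, with 70 higher and 6 lower, against a median of 0 over all genes. The 50 genes at least 4-fold lower at 15 h than at 6 h had a median of -0.72, with 2 higher and 15 lower. In Fed15 against Fed12 the medians of these classes were 0.88 and -0.85. Fed15 took part in choosing both classes, so those medians are not independent of the choice. In means alone, 226 of the 282 genes lay above 0 and 39 of the 50 lay below 0. Named leaders of the rise include nas-5, an astacin protease gene (log2 2.77 ± 0.51 in FedStarved15 against Fed12), dct-5 (3.35 ± 0.46) and dbd-20 (2.12 ± 0.45), but also col-41 (-0.93 ± 0.28) and lips-6 (-0.92 ± 0.53), which had lower means in FedStarved15 than in Fed12. Of these leaders only dct-5 was counted as higher, and none as lower. No named leader of the fall was counted as lower. They were ugt-63 (-2.36 ± 0.86), nhr-74 (-1.48 ± 0.51), tba-8 (-1.76 ± 0.37), dpy-6 (-0.17 ± 1.24) and col-80 (2.95 ± 0.79), which was counted as higher.

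Genes that differ between the fed 15 h and 24 h conditions, added after the values had been seen, were read as well. The 128 genes at least 4-fold higher at 24 h than at 15 h had a median of -2.28 in FedStarved15 against Fed12, with 1 higher and 93 lower. Among them were osm-8, clec-180, dpy-7 and dbd-18. The 57 genes at least 4-fold lower at 24 h than at 15 h had a median of 1.35, with 18 higher and 0 lower. In Fed15 against Fed12 their median was 1.74. Fed15 took part in choosing these classes too.

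Genes that separate starved from fed larvae at 6 h were read in the same way. The 36 genes at least 4-fold higher in starved larvae at 6 h had a median of 0.93 in FedStarved15 against Fed12, with 20 higher and 0 lower, beside a median of 0.38 in Fed15 against Fed12. The aquaglyceroporin gene aqp-1 (1.34 ± 0.21) and far-7 (1.79 ± 0.25) were among the leaders, and the sulfate permease family gene sulp-5 (-0.12 ± 0.38) was an exception. The 19 genes at least 4-fold lower in starved larvae had a median of -0.89, with 1 higher and 9 lower, and were led by acox-1.2. Their median in Fed15 against Fed12 was -0.80.

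**Figure D5:**
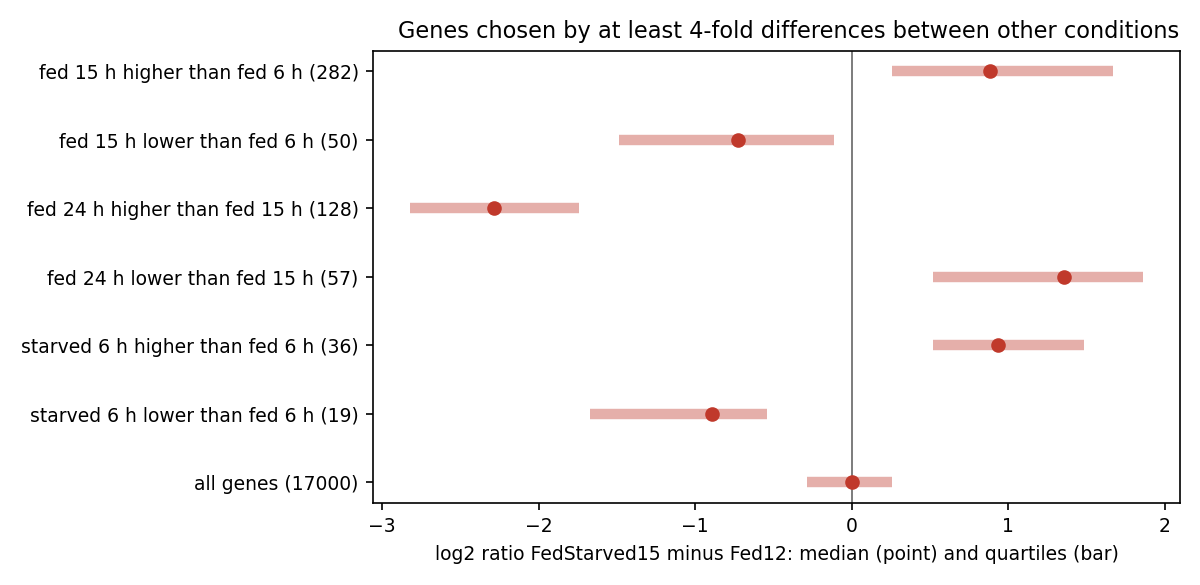
Log2 ratio FedStarved15 minus Fed12 over genes chosen by at least 4-fold differences, with an adjusted p under 0.05, between other conditions. Points are medians, bars are quartiles, and the number of genes is in parentheses. Genes higher in fed larvae at 24 h than at 15 h lie lowest, at a median of -2.28, and the median of all genes is 0.

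Markers of the labelled material were present. All 20 body wall muscle markers were detected in FedStarved15 and in Fed12, with a summed intensity of 24823 in FedStarved15 against 22512 in Fed12, and 4 of 20 early embryo markers were detected in each. The early embryo markers end-3, mex-1, mex-5, tbx-37 and tbx-38, were listed at the floor of 5 in both.

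StarvedFed15, which shared its hybridization day with FedStarved15, was set beside its own 12 h start, larvae starved for 12 h. This was added after the values had been seen and carries no test. There the median of ribosome biogenesis genes was 1.15, of translation genes 0.94, of chaperones 0.71, of replication genes 0.73 and of proteasome genes 0.80. The starvation list had a median of -1.45, neuropeptides -0.74 and collagens -0.36. It was 0.71 for mitosis, 0.41 for G1 control, 0.61 for cuticlins and apical matrix, 0.26 for furrow collagens and 0.03 for moulting regulators. Medians had the same sign there as in FedStarved15 against Fed12 for histones (0.11) and the abu, pqn and phat list (0.17). The same held for fatty acid synthesis (-0.05), vitellogenins (0.15), cuticle processing genes (0.10) and intestinal markers (0.26). The part of hybridization day in any of these values was not tested.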

How the data were processed

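RNA of whole N2 larvae was labelled from 100 ng and hybridized to Affymetrix arrays, 3 biological replicates per condition, per the labels' protocols and the deposited read-me. The authors deposited 1 mean intensity and 1 error (also intensity) per probe set and condition, with values under 5 raised to 5, a detection p (treated here as a score) and p-values of t-tests between pairs of conditions. For array software, background correction, normalization and the way the error was computed, the entry is: not given in the sources used here. Values of single arrays were not used here, so the spread between replicates enters only through the deposited errors and p-values.

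Log2 ratios were computed here from the deposited means, with errors propagated from the deposited errors. The deposited p-values were adjusted by Benjamini-Hochberg over 22548 probe sets at a threshold of 0.05. Where the deposited table held no p (fed 15 h against fed 6 h), the ratio over its error was used. With 4 degrees of freedom it chose 0 genes at 4-fold. A normal distribution, which takes the error as exact and calls more, was therefore used after that was seen. Genes that differ between fed 24 h and fed 15 h were chosen with the same normal distribution. Those of starved against fed larvae at 6 h were chosen with the adjusted deposited p. Each of 17000 genes was read from its probe set with the highest mean over the 18 conditions. "At least" folds set the higher mean against the larger of the undetected mean and the lowest detected mean of that condition. Leading genes were the 12 largest in each direction with a p under 0.05 before adjustment, 2-fold or more, detection in the higher condition and a public name, and up to 4 members of each list with such a p, by size, were considered as well, beside a set of genes always given, such as daf-16, sod-3 and lipl-3. The 6 probe sets that passed adjustment are all named, with or without a public name. The members and lists were chosen with earlier results of these data known. Tests were checked on simulated data. The tools were Python 3.11.15, numpy 2.4.6, scipy 1.17.1, pandas 2.3.3 and matplotlib 3.10.9. Promoter motifs were not analysed here.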

Additional observations from a re-analysis of the deposited data

Results flagged for a closer look

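The P-glycoprotein gene pgp-1, an intestinal transporter, differed between the change without food and the change with food by -2.49 on the log2 scale (FedStarved15 minus Fed15). It was the single probe set whose p for this difference passed adjustment. It was not detected in FedStarved15, at 13.9, against 78.1 in Fed15 and 100 in Fed12.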

How the results depend on the processing

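The counts of called probe sets depended on the test. In FedStarved15 against Fed12, where the authors' adjusted p gave 6, an error-based test with 4 degrees of freedom gave 0 on the log2 and linear scales and after quantile normalization, while a normal distribution gave 3444, or 3434 after quantile normalization, and the pooled error 2171. Detected probe sets alone gave 13, a 2-fold minimum 3, an adjusted p under 0.01 gave 2, and p before adjustment 3689. In Fed15 against Fed12, in place of 2, the same settings gave 0 with 4 degrees of freedom, 2191 and 2188 with a normal distribution, 1306 pooled, 1 at 2-fold, 0 at 0.01 and 2781 before adjustment. In FedStarved15 against Fed15, in place of 1, they gave 0, 1245 and 1192, 503 pooled, 0 at 0.01 and 2187 before adjustment. The counts before adjustment and the quantile-normalized normal counts were added after the data were seen. Class medians moved with the fold that chose the class: -1.35 at 8-fold (1 gene) for genes lower at fed 15 h than 6 h, -1.37 at 2-fold and -2.89 at 8-fold for genes higher at fed 24 h than 15 h, 0.64 at 2-fold for those lower, and -0.53 at 2-fold and -1.69 at 8-fold for genes lower in starved than fed larvae at 6 h. No direction reversed. Of 39 list medians, the sign held in 39 with the authors' primary probe set, 34 with detected probe sets alone, 39 with log2(mean + 20) and 35 after quantile normalization, and the 17 lists with a median beyond 0.2 kept their sign in all 4.

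The authors' p was exactly 1 for 3326 probe sets in FedStarved15 against Fed12, of which 21 differed by at least 2-fold with detection in the higher condition, and these were never counted. No paired analysis was possible because 1 mean per condition was used, and for the same reason no replicate was left out in turn. Low signal limits the ratios of undetected probe sets to bounds.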
